A study of Mus musculus with 8 samples.

Results

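Brain and kidney of male mice were compared on 6 of the 8 arrays of a study of lead exposure and transporter gene expression. The members are all 3 brain arrays and all 3 kidney arrays, chosen by their tissue label alone. The brain group holds 1 array each from a mouse group on distilled water (control), on lead acetate at 100 mg/L (low dose) and on lead acetate at 1000 mg/L (high dose) in the drinking water for 3 weeks, and the kidney group is built in the same way. The other 2 arrays are liver, control and high dose, and appear below only as values set beside the others. Total RNA came from small pieces of tissue and was read in 1 colour, Cy3, on Agilent gene expression arrays. The arrays of a tissue differ by dose, so the spread within a tissue holds any dose effect as well as the difference between samples. Nothing in the labels says that the arrays came from separate animals, or whether brain and kidney were taken from the same animal, and strain and age are not given in the sources used here. All p-values therefore measure the spread between these arrays only. In whole tissue, fewer cells of a type and less RNA per cell cannot be told apart.

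The brain is made of neurons, which signal through synapses, of glia that support, insulate and clear transmitter around them, and of vessels with a tight barrier. The kidney filters blood in the glomerulus and recovers or secretes solutes along the tubule, where each segment carries its own set of transporters. Proximal tubule cells burn fatty acids and make glucose, whereas the brain runs mainly on glucose taken from blood.

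A level below is the log2 processed signal of a probe minus the 75th percentile of its array, and a difference is the mean level of the 3 brain arrays minus that of the 3 kidney arrays, so that 1 is a 2-fold higher and -1 a 2-fold lower signal in brain. A gene was tested when its probe was well above background on all 3 arrays of at least 1 tissue, which held for 24094 of 37295 gene names. On brain arrays 64.0% to 67.1% of spots cleared the scanner's background test, against 58.5% to 61.0% on kidney arrays. The signal at the 75th percentile lay between 911 and 941 in brain and between 720 and 775 in kidney. A gene was called higher in a tissue when limma's test against a 2-fold threshold gave an adjusted p under 0.05. On that rule 4881 genes were higher in brain, which is 20.3% of those tested, and 4843 were higher in kidney, which is 20.1%, together 40.4%. All 3 brain arrays were above all 3 kidney arrays in 38.4% of tested genes, and below them in 46.8%. Among the 19223 genes well above background on all 6 arrays, 2591 (13.5%) were higher in brain and 3692 (19.2%) in kidney, and 887 and 885 of these differed by more than 8-fold. For 10126 genes (42%) the 95% confidence interval of the difference lay within 2-fold either way. Without a size threshold, 9017 genes (37.4%) were higher in brain and 10946 (45.4%) in kidney at an adjusted p under 0.05. The median difference over all tested genes was -0.13. A gene that passed the filter through 1 tissue alone could hardly be higher in the other, so counts and medians of the lists below describe their members and are no test. The count of each list is to be read beside the shares of all tested genes, 20.3% for brain and 20.1% for kidney. A further 2190 tested genes were well above background on all brain arrays and no kidney array, and 980 on all kidney arrays and no brain array, and for these the fold is given as a lower bound. That bound sets the mean level of the bright tissue against, on each dim array, the higher of the probe's own level and the lowest level well above background. A probe above that lowest level can still fail the background test, as Slc8a2 did at -4.61 on the control kidney array, against -4.83. The bounds below follow this definition and are no strict minimum. They hold for the reported probe and the processed signal only, and other probes or background corrections can give less.

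**Figure D1:**
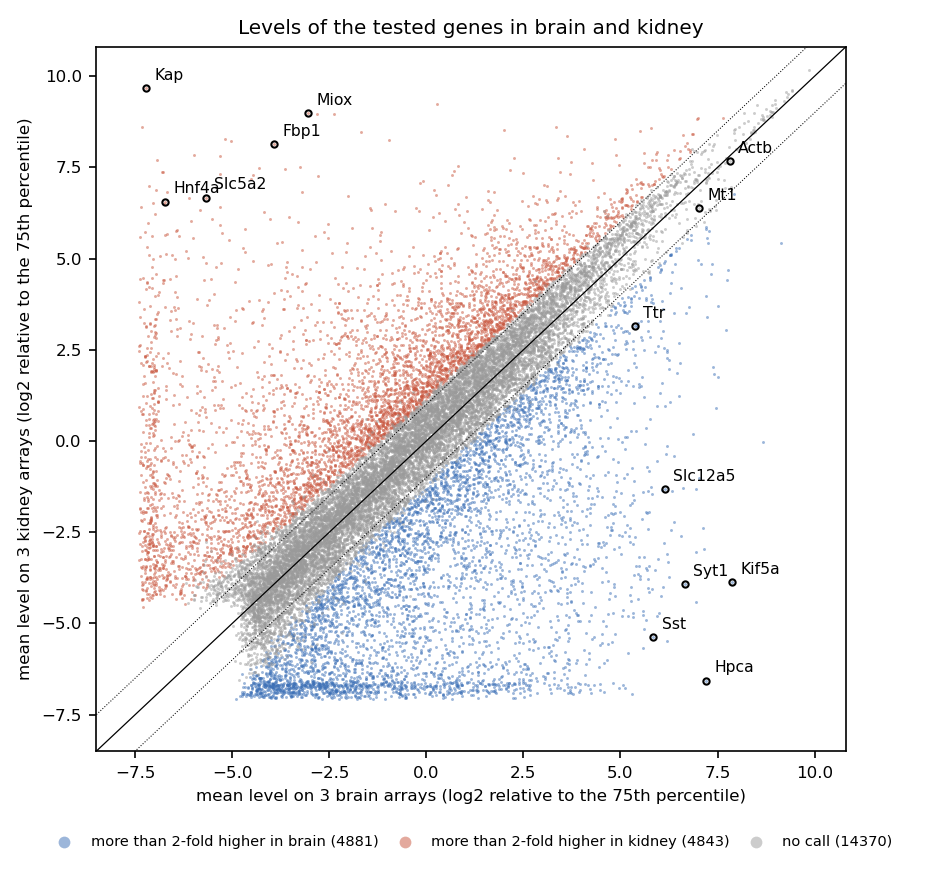
Mean level on the 3 brain arrays (horizontal axis, log2 relative to the 75th percentile) and on the 3 kidney arrays (vertical axis, same unit) of the 24094 tested genes, 1 point per gene. The solid line marks equal levels and the dotted lines a 2-fold difference. The 4881 genes called higher in brain lie below the band and the 4843 called higher in kidney above it, and points along the left and lower edges are genes not above background in 1 tissue.

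Toward brain, Kif5a and Syt1 had the largest differences among genes measured on all 6 arrays. Kif5a, a kinesin heavy chain that moves cargo along neuronal microtubules, had levels of 7.83, 7.94 and 7.88 on the control, low and high brain arrays, against -3.51, -3.72 and -4.41 on the kidney arrays. Its difference of 11.76 (SE 0.20) had an adjusted p of 2.1e-09 for more than 2-fold. Syt1, the calcium sensor of synaptic vesicle release, had 6.64, 6.57 and 6.78 in brain, against -4.21, -4.05 and -3.50 in kidney, a difference of 10.59 (SE 0.17). In both genes every brain array was far above every kidney array. The brain levels lay close together, and the kidney levels varied more. Next among those named were Gkn1, Rtn1, Stmn4, Camk2a, Kdm8, Ndrg4, Sult4a1, Rasgef1a and Adgrb2, with differences between 9.28 and 10.29. Camk2a encodes the alpha subunit of the calcium-calmodulin kinase of the postsynaptic density and had a difference of 9.74. Stmn4 belongs to the stathmins, which bind tubulin, and had a difference of 9.98. Gkn1 is known as a stomach mucosa gene, and its result rests on 1 probe at 5.97, 6.08 and 6.10 in brain, against -4.60, -4.08 and -4.04 in kidney, while its second probe was not well above background on any of the 6 arrays. Kdm8, a member of the lysine demethylase family, also rests on 1 probe, at 6.11, 6.21 and 6.35 in brain, against -3.38, -3.22 and -3.36 in kidney. Neither probe could be checked against a genome of the files' build.

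Among genes well above background in brain alone, Hpca had the largest bound. Hpca, which encodes the neuronal calcium sensor hippocalcin, had levels of 7.22, 7.33 and 7.09 in brain, against -6.47, -6.48 and -6.76 in kidney, where no array was well above background, so its signal was at least 3903-fold higher in brain. Next by this bound came Camkv, a kinase-like protein of vesicles, at least 1882-fold, and Sst, the peptide transmitter somatostatin, at least 1511-fold. Sst had levels of 5.88, 5.85 and 5.82 in brain, against -5.23, -5.34 and -5.59 in kidney. The bounds of Ly6h, Camk2b, Vgf, Cplx1 and Lrrc4b fell between 813-fold and 1275-fold. Some of these genes had other tested probes with lower differences. For Hpca these were 9.92 and 1.85, with no kidney array well above background. The lowest were 5.92 for Camkv, 3.53 for Ly6h, 8.61 for Camk2b and 4.71 for Vgf.

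Toward kidney, Fbp1 and Miox had the largest differences among genes measured on all 6 arrays. Fbp1, the gluconeogenic fructose bisphosphatase, had levels of -4.39, -4.33 and -3.07 in brain, against 8.21, 8.09 and 8.12 in kidney, a difference of -12.07 (SE 0.32) with an adjusted p of 2.0e-08. Miox, which opens the ring of inositol in the tubule, had -2.97, -3.03 and -3.15 in brain, against 9.08, 9.01 and 8.86 in kidney, a difference of -12.04 (SE 0.07). No brain array came near a kidney array in either gene. Next among those named were Cyp2e1, Gpx3, Cyp4b1, Klk1b3, Pdzk1ip1, Ugt3a2, Acy3, Cyp2d26 and Inmt, with differences between -11.81 and -10.04. Gpx3 encodes the glutathione peroxidase that the kidney secretes into plasma and had a difference of -11.79. Cyp2e1 was also high in liver, at 9.54 and 9.69 on the control and high arrays, whereas Gpx3 had -2.78 and -2.57 there. Kap, the androgen-regulated kidney protein of mice, had the largest bound. Its levels were -7.05, -7.25 and -7.36 in brain, none well above background, against 9.75, 9.70 and 9.56 in kidney, which is a signal at least 27433-fold higher in kidney. Acsm2, a mitochondrial acyl-CoA synthetase, was at least 13090-fold higher, and Umod, the uromodulin of the thick ascending limb, at least 6976-fold. The kallikreins Klk1b5, Klk1b26 and Klk1, together with Spink1, Cdh16, Cltrn and Mep1a, had bounds between 4303-fold and 9459-fold. Kallikreins have near-identical copies, so signal may be shared between their probes. Cdh16, the kidney cadherin, had a second probe with a difference of -0.77 that was well above background on all 6 arrays.

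Lists of synaptic genes lay almost wholly on the brain side. Of 25 presynaptic genes 23 were higher in brain and 0 in kidney (92%, beside 20.3% of all tested genes), with a median difference of 6.25 when genes below background in kidney were set to their bound. Syp, the vesicle protein synaptophysin, had levels of 5.53, 5.34 and 5.55 in brain, against 1.54, 1.47 and 1.39 in kidney. Snap25, a membrane fusion protein of the synapse, had 6.35, 6.34 and 6.30 in brain, against 4.61, 4.65 and 4.63 in kidney, the smallest difference among the called members at 1.70. Both were separated between the tissues, although their kidney levels were well above background. Cplx2 (0.50) and Unc13a (1.34) were not called, but with the probe of the highest single level in place of the probe of the highest mean, a choice made after seeing the data, both were, at 3.50 and 4.66. Where such a second probe was below background in 1 tissue, its fitted difference is given and is no bound. Of 19 postsynaptic genes 16 were higher in brain and 0 in kidney, with a median of 5.20. Among them were Dlg4, the scaffold PSD-95, with a difference of 5.59, and Nrgn, the calmodulin-binding neurogranin, with 7.04. Nlgn3 was not called at 0.55, and Shank2 and Dlgap2 were called only with the other probe rule, at 2.14 and 8.42.

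Receptors and channels for electrical signalling followed. All 22 ionotropic and metabotropic glutamate receptor genes on the list were tested, and 18 were higher in brain and 0 in kidney. Gria2, the AMPA receptor subunit that limits calcium entry, had levels of 4.13, 4.02 and 4.14 in brain and was not well above background in kidney, a bound of 449-fold. Grik1, Grin2d, Grm2 and Grik2 were not called, with differences of -0.52, -0.40, 0.00 and 1.04. Of 22 GABA and glycine receptor genes on the array 17 were tested and 15 were higher in brain. Gabrp, Gabre, Gabrq, Gabra6 and Glra3 did not reach background on all arrays of either tissue. Among 26 tested voltage-gated sodium and calcium channel genes 20 were higher in brain and 0 in kidney. Scn1a, a sodium channel of inhibitory neurons, was at least 237-fold higher. Scn8a, Cacna1b and Cacna1e were not called on their reported probes (-0.62, 0.55 and 0.20), whereas the probe with the highest single level gave 9.47, 6.39 and 7.18. Of 82 tested potassium channel genes of 92 on the array 59 were higher in brain and 7 in kidney, led in kidney by Kcnj1, the ROMK channel of the thick limb, at least 796-fold, with Kcnj15 (-8.18) and Kcnk5 (-7.85) next among those named.

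Transmitter enzymes and carriers were divided between the organs. Of 21 tested members 9 (42.9%) were higher in brain, 4 (19.0%) in kidney and 8 were not called. The share toward kidney was near the 20.1% of all tested genes. Gad2, which makes GABA, was at least 133-fold higher in brain, and Chat, which makes acetylcholine, had a difference of 3.45, with 1 of 3 kidney arrays well above background. Gad1 had 4 probes, of which the reported one gave 0.13 and the one with the highest single level 9.18. Ddc, the decarboxylase of dopamine and serotonin synthesis, had levels of -0.21, -0.15 and -0.29 in brain, against 3.91, 3.78 and 4.09 in kidney, so all kidney arrays were above all brain arrays and the difference was -4.14 (SE 0.08). Slc18a1 (-8.54, with 1 of 3 brain arrays well above background) and Slc6a4 were also higher in kidney. Slc6a4, the serotonin carrier, was below background in brain and at least 16.9-fold higher in kidney.

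Glial lists lay on the brain side with named exceptions. Of 15 astrocyte genes 11 were higher in brain and 2 in kidney. Slc1a2, the main glutamate carrier of astrocytes, had levels of 4.14, 4.07 and 4.24 in brain, against -1.81, -1.88 and -1.90 in kidney, a difference of 6.01 (SE 0.06). Aldh1l1, a folate enzyme used as an astrocyte marker, was higher in kidney at -2.94. Gja1, connexin 43, was called higher in kidney on its reported probe (-1.64), but the 4 other tested probes gave differences between 2.43 and 4.70 toward brain. Of 16 oligodendrocyte genes 13 were higher in brain, among them Mobp, a protein of central myelin, with 3.69, 3.62 and 3.51 in brain and a bound of 320-fold. Aspa (-2.95), which cleaves N-acetylaspartate, and Ugt8a (-2.23), which makes galactosylceramide, were higher in kidney. Of 13 tested microglia and macrophage genes 6 were higher in brain, 1 in kidney and 6 were not called. P2ry12, a microglial receptor for nucleotides, had -0.24, -0.19 and -0.27 in brain and was not well above background in kidney. Under scaling by the array median, 3 of the 13 were higher in brain.

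**Figure D2:**
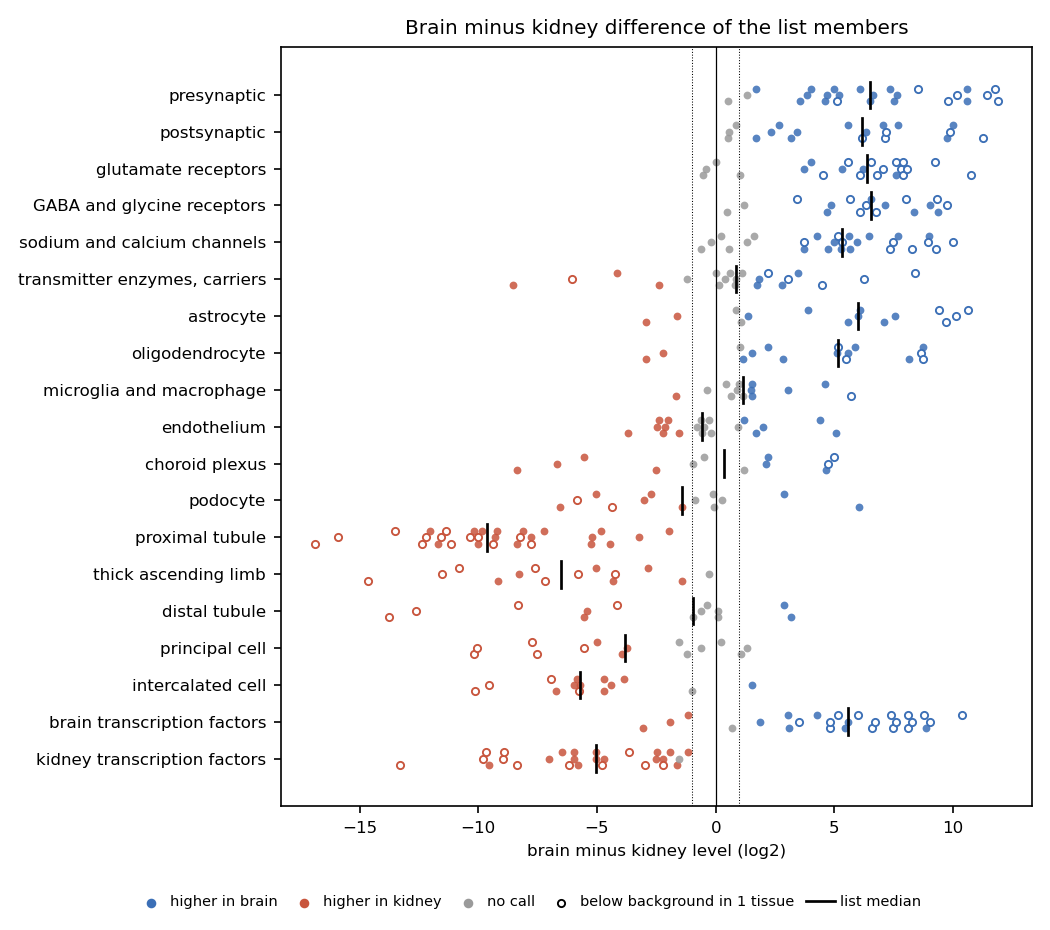
Brain minus kidney difference (horizontal axis, log2) of each tested member of the cell type, synapse and transcription factor lists (rows), 1 point per gene, with the median of the fitted differences as a black bar. Colour gives the call, open points are genes below background on all arrays of 1 tissue, and dotted lines mark a 2-fold difference. Synaptic lists lie to the right, with 23 of 25 presynaptic genes higher in brain, and the proximal tubule list to the left, with all 30 higher in kidney.

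Tubule lists showed the reverse. All 30 proximal tubule genes were tested and all 30 were higher in kidney (100%, beside 20.1% of all tested genes), with a median difference of -8.79 with bounds. Slc5a2, the sodium-glucose carrier SGLT2, had levels of -6.59, -5.17 and -5.30 in brain, none well above background, against 6.69, 6.67 and 6.67 in kidney, at least 3437-fold higher in kidney. Another tested probe of Slc5a2 gave a difference of -7.70. Lrp2, the endocytic receptor megalin, was at least 3788-fold higher in kidney. Slc34a1, the sodium-phosphate carrier, had -3.19, -3.36 and -3.36 in brain, against 6.08, 6.01 and 5.91 in kidney, a difference of -9.31, and a second probe, below background in brain, gave a fitted difference of -14.08. Of 14 thick ascending limb genes 13 were higher in kidney, among them Slc12a1, the salt carrier blocked by furosemide, with 3.54, 3.67 and 3.88 on kidney arrays and a bound of 436-fold, while Cldn14 was not called at -0.26. Another tested probe of Slc12a1 gave a difference of -2.74. Of 14 intercalated cell genes 12 were higher in kidney, led by the proton pump subunit Atp6v0a4 at a bound of 687-fold and the ammonia channel Rhbg at 165-fold. Kit, a receptor that mast and other cells also use, was the 1 member higher in brain, at 1.54.

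The distal and glomerular lists were mixed. Of 14 principal cell genes 8 were higher in kidney and 6 were not called. Aqp2, the water channel under vasopressin control, had levels of -2.81, -2.60 and -2.48 in brain, against 2.35, 2.40 and 2.39 in kidney. Scnn1a was not called at -0.60, but its probe with the highest single level gave -4.56. Of 13 tested distal tubule genes 2 were higher in brain and 6 in kidney. S100g, the calcium-binding calbindin D9k, was at least 2845-fold higher in kidney, whereas Calb1 (-0.62) and Pvalb (0.10), which neurons also use, were not called. Slc8a1, the sodium-calcium exchanger 1, was called higher in brain at 3.17, but its 2 other tested probes gave -3.20 and 0.86. Of 13 podocyte genes 2 (15.4%) were higher in brain and 7 (53.8%) in kidney. Podxl, a sialomucin of the podocyte surface, was at -4.39, -4.37 and -3.82 in brain, against -1.41, -1.47 and -1.52 in kidney. Synpo, an actin partner of podocytes and dendritic spines, was higher in brain, with 4.31, 4.62 and 4.64 there, against -1.39, -1.62 and -1.56 in kidney. Magi2 (2.88) was higher in brain too.

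Of 19 endothelial genes, all measured on all 6 arrays, 5 (26.3%) were higher in brain, 7 (36.8%) in kidney and 7 were not called. The shares of all tested genes were 20.3% and 20.1%. The 5 were Slc7a5 (5.06), Slco1c1 (4.38), Cldn5 (2.0), Abcb1a (1.70) and Ehd3 (1.20), of which the first 4 are transporters and a claudin known from the blood-brain barrier. Slc2a1, Mfsd2a and Ocln, list members also known from this barrier, were not called higher in brain. Cldn5 had levels of 1.93, 2.20 and 2.01 in brain, against -0.05, 0.07 and 0.10 in kidney. The 7 higher in kidney included Emcn, the sialomucin of capillaries and veins, at -0.64, -0.42 and -0.59 in brain, against 3.16, 3.22 and 3.1 in kidney, and Plvap, the diaphragm protein of fenestrated capillaries, with -2.21. Pecam1, a general endothelial marker, was not called at -0.58. The count toward brain was 3 in 8 other settings, among them the normexp background correction, median scaling and leaving out the brain control, brain high or kidney control array.

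**Figure D3:**
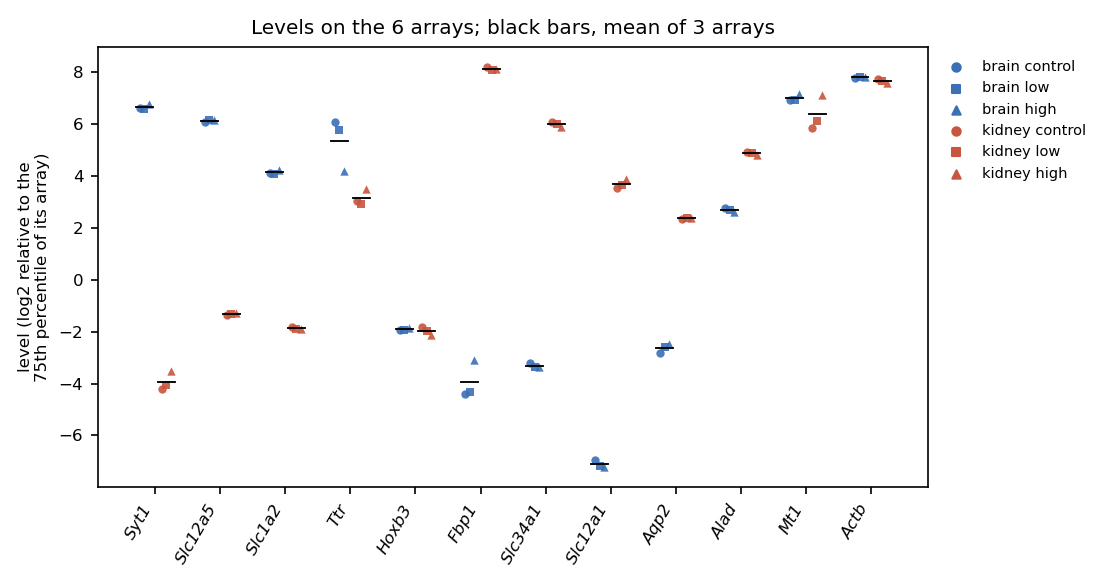
Levels of 12 genes named in the text on each of the 6 arrays (vertical axis, log2 relative to the 75th percentile of the array), with brain left of kidney for each gene, symbols for dose and black bars for the mean of 3 arrays. For most genes shown the 3 arrays of a tissue lie close together, but Ttr has 6.11, 5.79 and 4.20 in brain and Mt1 has 5.87, 6.14 and 7.13 in kidney. Slc12a1 in brain was not well above background.

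Transcription factors separated the organs as well. Of 27 tested factors of the brain list 23 were higher in brain and 3 in kidney. Tbr1, a factor of deep cortical layers, had levels of 3.62, 3.66 and 3.67 in brain and was at least 329-fold higher there. The 3 higher in kidney were Emx1 (-1.16), Emx2 (-1.92) and Rest (-3.08). Emx1 and Emx2 are also on the kidney list, and Rest is a repressor of neuronal genes in other cells. Rest had -1.97, -2.13 and -2.17 in brain, against 1.07, 1.01 and 0.90 in kidney. Of 27 tested factors of the kidney list 26 were higher in kidney, and Elf5 was not called at -1.55. Hnf4a, a driver of proximal tubule and hepatocyte genes, had 6.51, 6.57 and 6.60 in kidney, a bound of 3171-fold, and 6.70 and 6.86 on the liver arrays. Pax8, a factor of kidney development, had a bound of 128-fold.

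Hox genes, which mark position along the body axis and are silent in the forebrain, had levels mostly below background in brain. Of 39 Hox genes on the array 29 were tested, and 0 of these were higher in brain and 28 in kidney. Of the 29, 2 were well above background on all 6 arrays and 24 were below it on all brain arrays. A gene that passed the filter through kidney alone had to lie on the kidney side, so the count is a description. The 24 have bounds, and the median with bounds was -4.17. Hoxb7 was at least 297-fold higher in kidney, with 3.07, 3.23 and 3.13 there, and Hoxd8 at least 503-fold. Hoxa9 was measured on all 6 arrays, with -2.98, -3.06 and -2.77 in brain, against -0.48, -0.54 and -0.67 in kidney. Hoxb3 did not differ beyond its spread, with -1.92, -1.93 and -1.86 in brain, against -1.84, -1.97 and -2.14 in kidney. The fitted median of the 29 genes was -6.16, and -2.83 with the normexp background correction.

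Promoter windows of RefSeq (build GRCm38.p6, 250 bases before to 50 after each annotated gene start) were searched for the exact letters of 4 motifs on both strands, of which 3 are given here. Of the 24094 tested genes 13936 had a window by symbol. A gene counted when any of its windows held the letters, so a gene with more annotated starts had more windows to match. The REST core TTCAGCACC was found for 0.976% of genes higher in brain (28 of 2870) and 0.123% of those higher in kidney (4 of 3256). It was found for 0.502% of tested genes and 0.433% of all 27025 genes with a window. For a motif of RFX factors, given by name only, the shares were 1.08%, 0.276%, 0.667% and 0.633% in the same order, and for the cAMP response element TGACGTCA they were 2.93%, 2.27%, 3.14% and 2.03%. These shares describe letters in a short window and are no test of binding. A window without a match lacks only these letters.

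The windows below show where the letters lie in genes with large differences toward brain. Each is the 250 bases before the gene start, 5′ to 3′ on the gene's strand, with the cAMP response element in capitals in Sst and the REST core in Syn1 and Nlgn1. Syn1 also holds the cAMP response element, 159 bases before its start, which is left in lower case.
Sst, chr16:23890845-23891094, minus strand: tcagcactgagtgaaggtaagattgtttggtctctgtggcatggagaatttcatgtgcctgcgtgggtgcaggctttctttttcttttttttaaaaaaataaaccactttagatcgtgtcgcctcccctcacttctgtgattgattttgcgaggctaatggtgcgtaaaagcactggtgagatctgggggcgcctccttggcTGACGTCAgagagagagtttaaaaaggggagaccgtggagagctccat
Syn1, chrX:20920919-20921168, minus strand: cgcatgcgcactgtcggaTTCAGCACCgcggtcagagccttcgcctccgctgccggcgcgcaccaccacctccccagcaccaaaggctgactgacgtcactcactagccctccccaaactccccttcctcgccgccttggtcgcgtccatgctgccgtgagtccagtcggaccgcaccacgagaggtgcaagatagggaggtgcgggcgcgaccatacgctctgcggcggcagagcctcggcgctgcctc
Nlgn1, chr3:26153987-26154236, minus strand: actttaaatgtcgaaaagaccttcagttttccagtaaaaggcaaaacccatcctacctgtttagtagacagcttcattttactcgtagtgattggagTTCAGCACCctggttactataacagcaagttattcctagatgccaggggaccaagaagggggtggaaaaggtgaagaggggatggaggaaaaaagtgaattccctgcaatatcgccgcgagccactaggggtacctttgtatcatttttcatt
In Sst the cAMP response element starts 48 bases before the gene start. Syn1, which tethers synaptic vesicles, and Nlgn1, a postsynaptic adhesion protein, hold the REST core 232 and 153 bases before. Syn1 had levels of 5.63, 5.63 and 5.72 in brain, against -5.4, -4.92 and -4.43 in kidney, where 1 array was well above background, and Nlgn1 was at least 33.2-fold higher in brain. Among the list genes that hold the REST core, Grm2 (0.00) and Unc13a (1.34) were not called.

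Energy metabolism differed by pathway. Of 30 fatty acid oxidation genes 2 were higher in brain, 26 in kidney and 2 were not called, with a median difference of -3.07. Acadm, the medium-chain acyl-CoA dehydrogenase, had levels of 1.76, 1.78 and 1.69 in brain, against 6.42, 6.29 and 5.88 in kidney. Ehhadh, an enzyme of peroxisomal oxidation, had a difference of -7.89. The 2 higher in brain were Cpt1c (5.35), the brain form of carnitine palmitoyltransferase 1, and Abcd2, a peroxisomal importer of very long fatty acids, at least 16.8-fold. Of 9 gluconeogenesis genes 8 were higher in kidney, and Pck2 was not called at -0.10. Pck1, the cytosolic PEP carboxykinase, was below background in brain and at least 1800-fold higher in kidney, with 5.71, 5.87 and 5.64 there.

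Glycolysis genes went both ways. Of 20 genes 7 (35%) were higher in brain and 2 (10%) in kidney, beside 20.3% and 20.1% of all tested genes. The other 11 were not called, and the list median of 0.11 was -0.19 with median scaling. Eno2, the neuronal enolase, had levels of 6.01, 6.17 and 6.17 in brain, against -2.96, -3.16 and -2.31 in kidney, while Eno1, the general form, had 6.19, 6.09 and 6.18 in brain, against 6.68, 6.68 and 6.85 in kidney, a difference of -0.58. Slc2a3, the neuronal glucose carrier, had a difference of 7.17, with only 1 of 3 kidney arrays well above background (-4.68, -5.72 and -3.02), and 5.25 with the normexp background correction. Another tested probe of Slc2a3 gave 3.75. Aldoc had a difference of 5.58. Ldhb (-1.61) and Ldha (-1.48) were higher in kidney. Of 35 respiratory chain and ATP synthase genes 0 were higher in brain and 30 in kidney, but the differences were small, with a median of -1.45. With quantile normalization 14 of the 35 were higher in kidney, and the median was -0.99. Cox7a1, a tissue form of a complex IV subunit, was the largest at -3.93, and Cox6a2 was not called at 1.20.

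**Figure D4:**
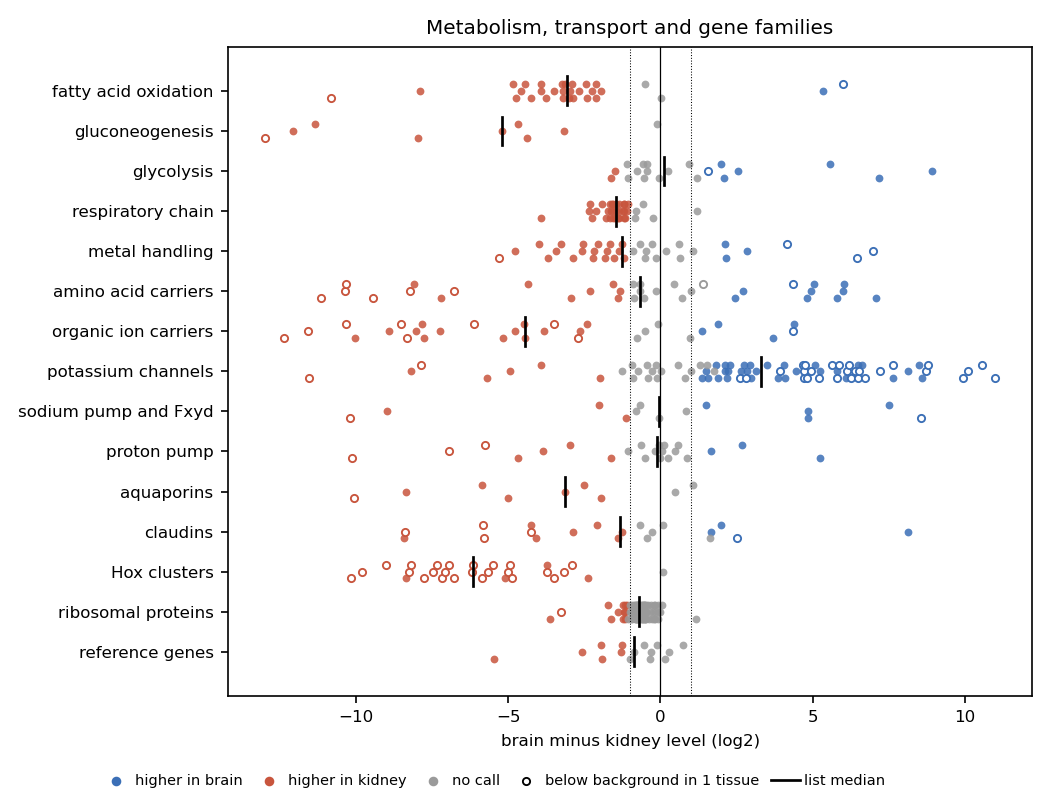
Brain minus kidney difference (horizontal axis, log2) of each tested member of the metabolism, transport and gene family lists (rows), with call colours, open points and median bars as in the plot of cell type lists. Fatty acid oxidation, gluconeogenesis and the Hox clusters lie to the left, and potassium channels mostly to the right with 59 of 82 higher in brain. Ribosomal proteins lie close to 0 on its kidney side, with a median of -0.69.

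Solute carriers, the subject of the study, leaned toward kidney. Of 389 SLC genes on the array 352 were tested, with 78 (22.2%) higher in brain and 152 (43.2%) higher in kidney, beside 20.3% and 20.1% of all tested genes. Among carriers measured on all 6 arrays, the largest toward brain was Slc12a5, the chloride extruder KCC2 of neurons. It had levels of 6.09, 6.17 and 6.16 in brain, against -1.36, -1.30 and -1.29 in kidney, a difference of 7.46 (SE 0.04). Slc1a3 (7.09) and Slc1a2 (6.01) clear glutamate, and Slc24a3 (5.23), Slc7a5 (5.06), Slc38a1 (4.93), Slc6a17 (4.81) and Slc29a4 (4.66) came next. Slc32a1, which loads GABA into vesicles, was below background in kidney and at least 732-fold higher in brain, Slc8a2 at least 623-fold and Slc24a2 at least 587-fold. Other tested probes of Slc24a2 gave differences of 5.82 and 7.04. Slc17a7, which loads glutamate, had a bound of 75.9-fold. Its brain levels of 1.60, 1.45 and 1.54 were close together.

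Toward kidney, Slc22a18 had the largest difference among carriers measured on all 6 arrays, with -3.28, -3.06 and -3.24 in brain, against 6.87, 6.84 and 6.76 in kidney, a difference of -10.02 (SE 0.07). Another tested probe of Slc22a18 gave -6.17. Slc34a1 (-9.31), Slc27a2 (-9.20), Slc22a2 (-8.92), Slc5a10 (-8.5), Slc34a3 (-8.38) and Slc3a1 (-8.11) were next among those named. Their substrates are phosphate for Slc34a1 and Slc34a3, fatty acids for Slc27a2, organic cations for Slc22a2, sugars for Slc5a10 and cystine for the carrier that contains Slc3a1. Slc17a3, Slc22a30 and Slc51a were below background in brain, with bounds of 1860-fold, 1708-fold and 1332-fold. Their other tested probes gave differences of -4.09 for Slc17a3, -11.46 and -8.56 for Slc22a30 and -10.37 for Slc51a. Slc22a18, Slc27a2 and Slc22a30 were also high in liver, at 5.4 and 5.50, 7.38 and 7.42, and 5.44 and 5.29 on the control and high arrays. Slc51a and Slc22a2 were not well above background there.

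By substrate class, 5 of 30 tested organic ion carriers were higher in brain and 21 in kidney. Slco1c1, the thyroid hormone carrier of brain vessels, was at 4.38 and Slco1a4 at least 16.7-fold higher in brain. Slc22a6, the organic anion carrier OAT1, had levels of -0.07, -0.25 and 0.03 in brain, against 7.13, 7.17 and 7.11 in kidney. Slco2a1, the prostaglandin carrier, was called higher in brain at 1.36 on its reported probe, whereas 2 other probes gave -3.93 and -3.62. Of 34 amino acid carriers 10 (29.4%) were higher in brain, 14 (41.2%) in kidney and 10 were not called. Slc7a13 was at least 713-fold higher in kidney, and Slc6a19, the neutral amino acid carrier of the brush border, at least 293-fold. Another tested probe of Slc7a13 gave a difference of -4.76. Of 39 tested ABC transporters 9 (23.1%) were higher in brain and 10 (25.6%) in kidney, near the 20.3% and 20.1% of all tested genes. Abcc8, the sulfonylurea receptor, led toward brain at 6.90, with 2 of 3 kidney arrays well above background, and Abcc2, which exports conjugates, was at least 79.4-fold higher in kidney, beside -5.03 for Abcg2.

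In 22 pairs of related genes, chosen because 1 member is known from brain and 1 from kidney, which makes their sides a description, the brain member was higher in brain in 20 and the kidney member higher in kidney in 17. Both held in 15 pairs. Slc12a5 (7.46) and Slc12a1 (at least 436-fold higher in kidney) are cation-chloride carriers, Cpt1c (5.35) and Cpt1a (-4.25) carnitine palmitoyltransferases, and Slc2a3 (7.17) and Slc2a2 (-5.21) glucose carriers. In the proton pump, Atp6v0a1 (2.67) and Atp6v1g2 (5.23) were higher in brain and Atp6v0a4 (at least 687-fold), Atp6v1b1 (at least 12.5-fold) and Atp6v1g3 (-3.87) in kidney, while Atp6v1b2 was not called at -0.06. Atp6v1g3 was well above background on 1 brain array, and its difference was -2.04 with the normexp background correction. Other tested probes gave differences from 0.04 to 6.27 for Atp6v1g2, from 0.36 to 2.93 for Atp6v0a1 and of 3.75 for Slc2a3. Kif5b, the ubiquitous kinesin, had 4.02, 4.12 and 4.07 in brain, against 3.76, 3.77 and 3.73 in kidney, beside 11.76 for Kif5a. Atp2b1 (3.45) and Slc8a1 (3.17) had been paired as kidney members and were higher in brain. Aqp4, the water channel of astrocytes and of the collecting duct, was not called at 1.07. Clcn2 was called at 1.18, close to the 2-fold threshold. It lost the call with median scaling (0.89), with normexp (1.13), without the brain control (1.17) or brain high array (1.16), and without both control (1.18) or both high arrays (1.13).

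**Figure D5:**
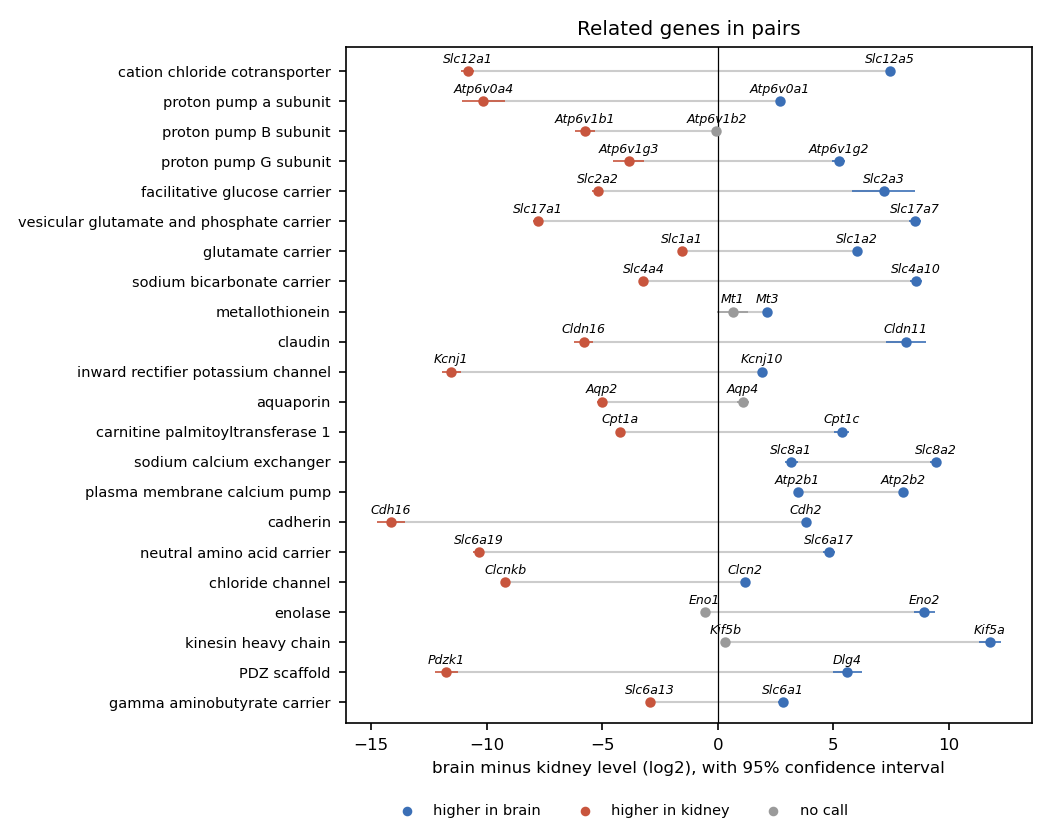
Brain minus kidney difference (horizontal axis, log2) of both members of 22 pairs of related genes (rows), with 95% confidence intervals as horizontal bars and the call as colour. In most rows the members lie on opposite sides of 0.

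The sodium pump, which drives transport in both organs, differed by subunit. Of 13 tested genes of the pump and its Fxyd partners 5 (38.5%) were higher in brain, 4 (30.8%) in kidney and 4 were not called. Fxyd2, the gamma subunit of tubules, had 0.13, 0.51 and 0.17 in brain, against 9.28, 9.24 and 9.21 in kidney, and Fxyd7, its brain relative, was at least 266-fold higher in brain. Of 9 tested aquaporins 0 were higher in brain and 7 (77.8%) in kidney, beside 20.3% and 20.1% of all tested genes. Of 20 claudins 4 (20%) were higher in brain, about the 20.3% of all tested genes, and 11 (55%) in kidney, beside 20.1%.

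Genes that handle metals, of interest because lead uses and disturbs these routes, were mostly higher in kidney. Of 35 tested 6 (17.1%) were higher in brain and 19 (54.3%) in kidney, beside 20.3% and 20.1% of all tested genes. The other 10 were not called, and the median was -1.28. Alad, the heme synthesis enzyme that lead inhibits, had levels of 2.78, 2.71 and 2.62 in brain, against 4.94, 4.89 and 4.83 in kidney, a difference of -2.18 (SE 0.05). Slc11a2, the divalent metal carrier DMT1, had -1.67, -1.66 and -1.63 in brain, against 0.63, 0.54 and 0.49 in kidney. Both were separated at every dose. Slc39a8 (-4.0), a zinc and manganese importer, Ftl1 (-3.42), a ferritin chain, and Slc40a1 (-2.58), the iron exporter, were also higher in kidney. The 6 higher in brain were Slc30a3, which fills synaptic vesicles with zinc, at least 29.7-fold, Slc39a12 at least 28.4-fold, Slc30a10 at least 4.71-fold, Trf (2.83), Mt3 (2.14) and Slc39a10 (2.11). Mt1, a metal-binding metallothionein, had 6.94, 6.94 and 7.18 in brain, against 5.87, 6.14 and 7.13 in kidney, so the tissue difference was 1.07 at control and 0.05 at the high dose and was not called. Mt2 had 5.69, 5.56 and 5.85 in brain, against 4.16, 4.40 and 5.36 in kidney, and was not called either.

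Of 82 ribosomal protein genes 0 were higher in brain, 12 in kidney (14.6%) and 70 were not called, with a median of -0.69, which was -0.19 with quantile normalization and -0.98 with median scaling. Without a size threshold, 77 of the 82 were higher in kidney and 1 in brain at an adjusted p under 0.05. Rps27l (-3.62), a p53-induced relative of a ribosomal protein, had the largest difference. Of 15 genes often used as references for normalization 0 were higher in brain, 6 (40%, beside 20.1% of all tested genes) were higher in kidney and 9 were not called, with a median of -0.85. Not called was Actb at 0.14, with 7.78, 7.82 and 7.84 in brain, against 7.74, 7.68 and 7.60 in kidney. Among the 6 higher in kidney were Gusb (-5.47) and B2m (-2.57). Without a size threshold, 12 of the 15 reference genes were higher in kidney and 3 in brain.

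Each dose has 1 brain and 1 kidney array, so a change of the tissue difference between doses could not be tested, and dose and array cannot be told apart. Among genes measured on all 6 arrays, 598 (3.11%) had differences that varied by more than 1 between doses. The choroid plexus list was 1 of 3 whose median difference changed sign between doses. Of 12 genes of this epithelium, which makes cerebrospinal fluid, 5 (41.7%) were higher in brain and 4 (33.3%) in kidney. The list median was 1.17 at control, 0.23 at the low and -0.38 at the high dose. Ttr, its thyroxine carrier, had 6.11, 5.79 and 4.20 in brain, against 3.04, 2.91 and 3.51 in kidney, and Kcne2 had -0.90, -1.28 and -2.99 in brain. Every gene of the list except Slc29a4 had its lowest brain level on the high array. The hepatocyte list, which also holds Ttr, kept its sign, with medians of -3.06, -3.65 and -5.08 at the control, low and high dose. Of genes of medium spiny neurons of the striatum, Rgs9 had 3.32, 5.23 and 2.69 and Adora2a 0.22, 1.98 and -0.73 in brain, so the low-dose array was the highest of the 3 in both.

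Markers of other tissues were read in the same arrays. Adrenal genes were low on kidney arrays except at control, where Cyp21a1, a steroid hydroxylase, had 1.43, against -2.28 and -1.99 at the low and high dose, and Star and Hsd3b1 were highest on that array too. The summed linear level of the 10 adrenal genes was 65.6, 59.8 and 63.3 in brain, mainly from Chgb, which neurons also use, against 6.06, 0.905 and 0.907 in kidney. Spermatid genes had sums of 0.595, 0.548 and 10.6 in brain, against 2.62, 1.19 and 20.2 in kidney, so both high-dose arrays stood out, led by Prm1 at 2.43 in brain and 3.34 in kidney. Fat genes had sums of 1.5, 1.18 and 1.25 in brain, against 24.6, 20.1 and 16.2 in kidney, and 5 of 7 tested were higher in kidney, led by Fabp4, which capillaries also use, at least 404-fold. Hepatocyte genes had sums of 74.5, 60.7 and 23.6 in brain, where Ttr makes up most, against 21.2, 20.9 and 50.2 in kidney, where Serpina1a had 1.5, 1.80 and 4.78. Of 6 tested red blood cell genes all 6 were higher in kidney (100%, beside 20.1% of all tested genes), with Hba-a1 at -1.86. The list holds Slc4a1, which is also on the intercalated cell list. Of the tested pituitary and urothelium genes only Upk3a was called, higher in kidney and at least 9.78-fold. Cyp11a1 of the adrenal list was higher in brain and Hsd3b1 in kidney, and no spermatid gene was called. The part of these signals in the tissue differences was not tested.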

How the data were processed

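Gene expression was measured on 1-colour Agilent arrays of brain and kidney, 3 arrays each, with 50 ng of RNA per labelling and all arrays on 1 slide. Batches of dissection, extraction or labelling are not given in the sources used here. The deposited intensity values are processed signals, with background already subtracted per the file headers. The submitters' processing notes name Agilent Feature Extraction 12.0.3.1. A second table deposited by the authors served as an alternative. It gave a linear signal, and its ratio to the scanner values showed division by each array's 75th percentile over all spots, with no centring of genes. The median of its columns was 0.112, 0.113 and 0.114 in brain and 0.0940, 0.0905 and 0.0936 in kidney.

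Control and flagged spots were left out, spots of a probe were averaged, and the 75th percentile of the array was subtracted on the log2 scale, which is relative and hides a change common to all genes. Of 56605 probes 33903 were named through RefSeq accessions and 22702 by the files' own names, which can be old. Each gene was read from the tested probe whose mean over all 6 arrays was highest, a rule that can favour probes seen in both tissues. Of 3614 called genes with other tested probes, 1270 had a probe that disagreed. limma 3.58.1 (R 4.3.3) fitted tissue alone to the 6 arrays, allowing the prior variance to follow intensity, with 4 residual degrees of freedom and Benjamini-Hochberg adjustment over all 36995 tested probes. Adjusted p-values are from limma's test against a 2-fold threshold unless stated. The fit was tested on simulated data. With 3 arrays per tissue the number of arrays limits the precision.

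Genes named are the 12 largest differences in each direction among genes measured on all 6 arrays, the 10 largest bounds, the 8 largest transporters of each kind, members of related pairs and members of the lists. Other genes named (the striatal pair Rgs9 and Adora2a) were chosen after their values were seen. The members and lists were chosen with earlier results of these data known. Alternatives covered background correction, scaling, the filter on dim probes, the probe rule, the dose as a block and leaving out arrays. Results for some genes these rules choose, and 1 promoter motif, are not reported here.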

Additional observations from a re-analysis of the deposited data

Results flagged for a closer look

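3 lists had median differences whose sign was not the same at the 3 doses. Each dose has 1 array per tissue, so none of these differences between doses was tested. The choroid plexus genes had a median brain minus kidney difference of 1.17 at control, 0.23 at low and -0.38 at high dose. The adrenal genes had -0.31 at control, 0.24 at low and 0.44 at high dose, and the kidney control array held the highest kidney levels of Cyp21a1, Star and Hsd3b1. The sodium pump and Fxyd genes had 0.0232 at control, -0.0254 at low and -0.144 at high dose, all close to 0.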

How the results depend on the processing

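The counts of 4881 genes higher in brain and 4843 higher in kidney lay between 3642 and 5803 for brain and between 4030 and 6107 for kidney over the other settings, apart from the stricter filter. Requiring a probe well above background on all 6 arrays, which leaves fewer genes by construction, gave 2592 higher in brain and 3678 in kidney. Median scaling moved the median difference of all genes and gave 4230 and 6107, and normexp gave 3642 and 4030. Leaving out 1 array gave 4746 to 4921 genes higher in brain, 4699 to 4832 higher in kidney and 19357 to 19883 that differed at any size. With dose as a replicate block, the fit gave 4855 and 4827. Arrays of the same dose correlated across tissues at only 0.028, 0.024 and 0.054 in their deviations, for control, low and high dose. Each array correlated best with its own dose, but control brain with low kidney reached 0.021, close to the 0.024 of the low pair. Each dose has 1 array per tissue, so whether the arrays are paired was not tested. Taking the probe with the highest single level, a setting added after seeing the data, gave 5020 and 4920. Cdh16 and Slc13a1 lost their calls under the stricter filter (-0.77 and -0.09), where another probe stood for the gene, and Slc8a1 lost its call with the mean of probes (0.28). The medians of the glycolysis, sodium pump and proton pump lists changed sign between scalings. That of the choroid plexus list stayed above 0 under the scalings and was -0.02 with the normexp background correction. Genes below background in a tissue have only a bound, and no array repeats a dose.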
